A study of Mus musculus with 45 samples.

Results

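Macrophages polarized by interferon-gamma and lipopolysaccharide (M1) were compared directly with macrophages polarized by interleukin-4 (M2), by RNA sequencing of mouse bone marrow-derived macrophages. All 15 M1 and all 15 M2 libraries of the series were used, 30 of 45 in all, and each M1 library was set against the M2 library with the same genotype and replicate number. The other 15 libraries, from unstimulated M0 macrophages, entered no test and are given only as side values. The mice were C57BL/6N, 6 to 10 weeks old, and carried one of 3 engineered variants of Famin (gene symbol Lacc1), which encodes an enzyme of purine nucleosides: Faminp.254I, Faminp.254V and Faminp.284R, with 5 mice each. Their marrow cells were grown for 6 days with M-CSF, so that every library, M0 included, comes from M-CSF-grown macrophages, and were then given for 24 h either IFN-γ at 50 ng/mL together with LPS at 20 ng/mL, for M1, or IL-4 at 20 ng/mL, for M2. IFN-γ and LPS were always given together, so the response to one cannot be told apart from the response to the other. The libraries held 17239009 to 36892515 counted reads, with a median of 27645651 in M1 and 26735967 in M2, so that 1 CPM, the count scaled to the library total, stands for 17.2 to 36.9 reads. Levels below are CPM, which are not divided by transcript length, and so they were compared between states and not between genes.

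As background, IFN-γ signals through JAK kinases to factors that bind the gamma-activated site (GAS), and through IRF1 and IRF9, which act at the interferon-stimulated response element (ISRE). LPS signals through TLR4 to NF-kB and to IRF3, the latter giving type I interferon. IL-4 signals through its receptor to STAT6, which binds a palindrome like the GAS with a wider spacer. Classically activated macrophages are known for nitric oxide production, antigen presentation and defence against intracellular microbes, and macrophages alternatively activated by IL-4 for arginase, chitinase-like proteins and responses to helminths and in tissue repair.

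Promoter sequences are shown first for 6 of the genes that differed most, 4 higher in M1 and 2 higher in M2, because they hold matches to the response elements named above. Each run is the 250 bases before the RefSeq start of the gene, from RefSeq on build GRCm38.p6, written 5′ to 3′ on the gene's strand. The positions were Cxcl10 at chr5:92348890-92349139 on the minus strand, Gbp5 at chr3:142496684-142496933 on the plus strand, Tgtp1 at chr11:48992247-48992496 on the minus strand, Serpina3g at chr12:104235897-104236146 on the plus strand, Retnla at chr16:48842359-48842608 on the plus strand and Tmem26 at chr10:68723496-68723745 on the plus strand. Capitals mark matches, on either strand, to the GAS (TTCNNNGAA), the STAT6 type palindrome (TTCNNNNGAA) or the ISRE core (GAAANNGAAA).
Cxcl10: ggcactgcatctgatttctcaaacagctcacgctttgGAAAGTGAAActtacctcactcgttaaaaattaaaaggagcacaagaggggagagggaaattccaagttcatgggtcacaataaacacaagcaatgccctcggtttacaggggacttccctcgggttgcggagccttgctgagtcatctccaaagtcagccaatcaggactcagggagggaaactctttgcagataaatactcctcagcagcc
Gbp5: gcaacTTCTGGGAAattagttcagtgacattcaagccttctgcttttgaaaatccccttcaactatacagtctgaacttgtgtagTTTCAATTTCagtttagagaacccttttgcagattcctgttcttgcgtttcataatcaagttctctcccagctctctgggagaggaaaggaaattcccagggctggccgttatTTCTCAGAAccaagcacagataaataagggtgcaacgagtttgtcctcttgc
Tgtp1: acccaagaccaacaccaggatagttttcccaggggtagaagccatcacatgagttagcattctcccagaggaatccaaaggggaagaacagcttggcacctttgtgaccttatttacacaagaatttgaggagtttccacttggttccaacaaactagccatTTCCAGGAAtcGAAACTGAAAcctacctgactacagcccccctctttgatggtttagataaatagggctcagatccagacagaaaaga
Serpina3g: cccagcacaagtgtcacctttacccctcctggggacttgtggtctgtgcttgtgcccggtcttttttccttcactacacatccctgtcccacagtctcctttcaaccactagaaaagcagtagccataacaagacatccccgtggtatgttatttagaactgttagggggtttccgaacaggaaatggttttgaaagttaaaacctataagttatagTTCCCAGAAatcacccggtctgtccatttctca
Retnla: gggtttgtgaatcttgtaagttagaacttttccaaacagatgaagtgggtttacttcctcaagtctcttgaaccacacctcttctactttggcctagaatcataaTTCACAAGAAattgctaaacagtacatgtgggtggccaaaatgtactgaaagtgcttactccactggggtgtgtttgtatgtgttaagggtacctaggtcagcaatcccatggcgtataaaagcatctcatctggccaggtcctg
Tmem26: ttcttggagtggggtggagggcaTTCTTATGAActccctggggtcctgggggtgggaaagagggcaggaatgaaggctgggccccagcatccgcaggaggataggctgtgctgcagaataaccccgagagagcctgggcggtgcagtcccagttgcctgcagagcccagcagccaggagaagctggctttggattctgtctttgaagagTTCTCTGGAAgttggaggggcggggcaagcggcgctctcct
Cxcl10 held 1 ISRE core. Gbp5 held 2 GAS matches and 1 ISRE core, Tgtp1 held 1 of each in neighbouring positions, and Serpina3g held 1 GAS match. Retnla held 1 STAT6 type match and a TATA box, and Tmem26 held 2 STAT6 type matches. The 6 were picked for their matches. Of the 15 leading genes of the M1 side 8 had a promoter sequence, 4 of them with a GAS match, 4 with an ISRE core and 0 with a STAT6 type match. Of the 15 of the M2 side 10 had one, 2 of them with a STAT6 type match (Retnla and Tmem26), 1 with a GAS match (Chil3) and 0 with an ISRE core. A match describes letters in this window and is not evidence that a factor binds there.

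The 4 markers of the polarization states separated the libraries by label. Cxcl9, a chemokine that IFN-γ induces, was at 964, 3182 and 5241 CPM in M1 (lowest, median and highest of 15) and at 0.0376, 0.26 and 0.97 CPM in M2. Nos2, the inducible nitric oxide synthase, was at 2.96, 19.4 and 146 CPM in M1 and at 0, 0.238 and 0.562 CPM in M2. Neither gene overlapped between the states. Arg1, which breaks arginine down to ornithine and urea, was at 0.251, 0.638 and 40.2 CPM in M1 and at 692, 1011 and 1394 CPM in M2. Retnla, which encodes the secreted protein RELMα, was at 0, 0.0388 and 48.4 CPM in M1 and at 1262, 3213 and 9124 CPM in M2. These 2 genes did not overlap either, but in both of them 1 M1 library lay far above the other 14. The log2 fold change of M1 over M2 was 13.13 (SE 0.29) for Cxcl9, 6.72 (SE 0.37) for Nos2, −10.09 (SE 0.53) for Arg1 and −13.79 (SE 0.80) for Retnla. The adjusted p was 7.2e-17, 2.3e-11, 1.6e-11 and 5.3e-11 in that order, by the quasi-likelihood test of edgeR with the mouse as a block, adjusted over all genes by the method of Benjamini and Hochberg. Every one of the 4 had the same sign in 15 of 15 mice.

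**Figure D1:**
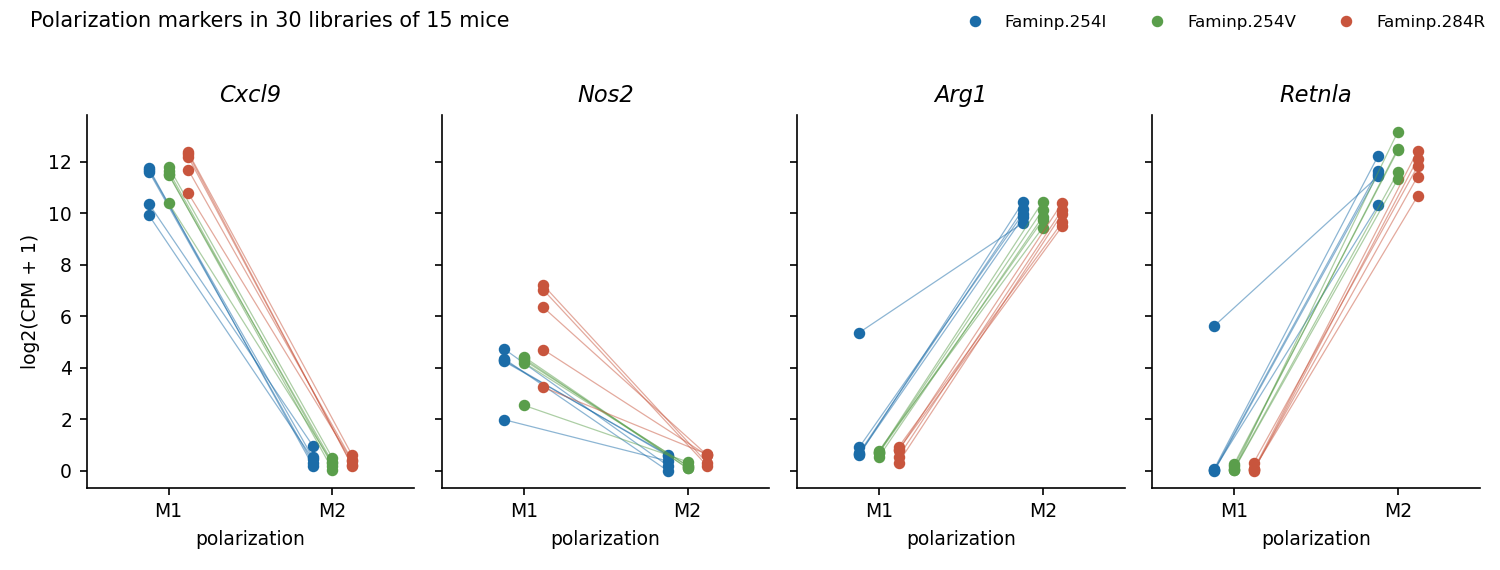
Level of Cxcl9, Nos2, Arg1 and Retnla in each of the 30 libraries, as log2 of CPM plus 1, by polarization state and genotype, with a line joining the M1 and M2 libraries of a mouse. M1 points of Cxcl9 (964 to 5241 CPM) and Nos2 (2.96 to 146 CPM) lie above every M2 point, and M2 points of Arg1 (692 to 1394 CPM) and Retnla (1262 to 9124 CPM) above every M1 point, while the M1 library of Faminp.254I mouse 5 reaches 40.2 and 48.4 CPM in the latter pair.

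A few libraries stood apart within their state. In the M1 library of Faminp.254I mouse 5, all 15 genes that led the M2 side were above their level in each of the other 14 M1 libraries, by 1.33% to 5.04% (median 2.14%) of the level in the M2 library of the same mouse. In the M2 library of Faminp.254I mouse 4, 30 of 30 antiviral interferon-stimulated genes were above the M2 median, 24 of them above every other M2 library. Their median deviation was 1.18 on the log2 scale. There, 21 of 26 IL-4 effector genes were below the M2 median (median deviation −0.52). That count was not particular to it: the M2 libraries of Faminp.254I mouse 5 and Faminp.254V mouse 5 had 21 (−0.16) and 22 (−0.19). The M2 libraries of Faminp.284R mice 3 and 2 also had 30 of 30 antiviral genes above the M2 median, by 0.97 (6 above every other M2 library) and 0.56 (0 above every other). The M1 libraries of replicate 2 were low in many M1 genes in all 3 genotypes. Nos2 was at 2.96 to 8.46 CPM there and at 17.4 to 146 CPM in the other 12. Irf7 was at 1178 to 1640.2 CPM against 1832 to 2700.0 CPM. Of the 30 antiviral genes, 0 (Faminp.254I), 0 (Faminp.254V) and 2 (Faminp.284R) were above the M1 median in replicate 2. The median deviations were −0.84, −0.68 and −0.35 in that order. The M1 library of Faminp.254I mouse 5 also had 0 above, with a median deviation of −0.20. Without the M1 and M2 libraries of Faminp.254I mice 4 and 5, chosen after seeing the data, 10260 genes were called in place of the 10312 given below. The labels name no batch, although the authors sequenced several libraries to a lane and batch-corrected values for gene set enrichment. The part that these libraries' handling had in any result was not tested.

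Most of the transcriptome differed between M1 and M2, in nearly equal numbers in each direction. Of 12574 genes with enough counts to test, 10312 (82%) had an adjusted p under 0.05 in the same edgeR test, here named as called. Of these, 5123 (40.7%) were higher in M1 and 5189 (41.3%) higher in M2, and the median log2 fold change over all tested genes was −0.01. With 15 pairs a small difference sufficed: 4671 called genes (45.3%) differed by less than 0.5 on the log2 scale, and 476 (4.62%) by 4 or more, of which 204 were higher in M1 and 272 in M2. A test against a difference of 2-fold, rather than against 0, left 1227 genes (9.76%) higher in M1 and 1353 (10.8%) higher in M2, and "past 2-fold" below means this test. All 15 M1 libraries were above all 15 M2 libraries in 18.1% of tested genes, and all 15 M2 above all 15 M1 in 18.6%. Among the genes past 2-fold, 1185 of 1227 and 1300 of 1353 had the same direction in each of the 15 mice. Choosing genes by their difference in these same mice favours such counts. The first principal component separated the states and held 91.3% of the variance, and the second held 2.44%.

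**Figure D2:**
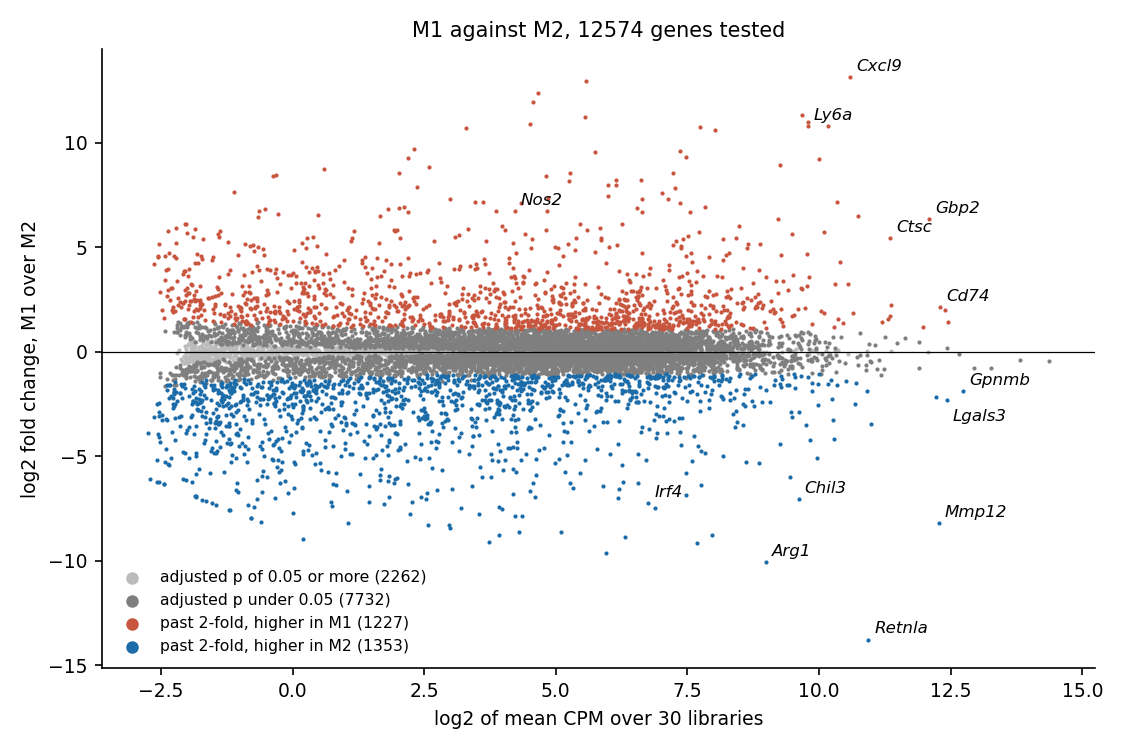
Log2 fold change of M1 over M2 of all 12574 tested genes against the log2 of their mean CPM over the 30 libraries, with genes past 2-fold coloured by the state in which they were higher and some leading genes labelled. The 1227 genes past 2-fold higher in M1 and the 1353 higher in M2 spread over the whole range of abundance, and the median of all genes is −0.01.

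The genes past 2-fold held a large share of the reads. They were chosen by their difference in these same libraries, so a larger share in the higher state follows from the choice. Only the size of the shares is described here. The 1227 genes higher in M1 took 22.8% to 26.4% (median 24.4%) of the reads of M1 libraries and 4.87% to 5.81% (median 5.13%) of those of M2 libraries. The 1353 genes higher in M2 took 16.9% to 19.1% (median 18%) of M2 reads and 3.46% to 4.43% (median 3.9%) of M1 reads. The 10 most abundant genes of a library took 8.4% to 9.56% of M1 reads and 10.4% to 12.5% of M2 reads, lower in M1 in 15 of 15 mice (two-sided exact paired permutation test, n = 15 mice, p = 6.1e-05, the smallest that 15 pairs allow).

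Chemokines, GTPases and protease inhibitors were among the genes that led the M1 side. By the rule of a mean of at least 50 CPM, no overlap between states and the largest fold change past 2-fold, the 15 leading genes were Cxcl9, Gm4841, Gbp10, Gbp2b, Tgtp1, Gbp4, Iigp1, Ly6a, Clic5, Cxcl10, Serpina3f, Sectm1a, Dnase1l3, Serpina3g and Gbp5. Of them 6 are on the list of guanylate-binding proteins (GBP) and immunity-related GTPases (IRG) used below: Gbp10, Gbp2b, Tgtp1, Gbp4, Iigp1 and Gbp5. By background knowledge these attack the vacuoles of intracellular microbes. That list does not hold every such gene, and Gm4841 is not on it. Gbp2b (ENSMUSG00000040264, chr3:142594847-142619179) was at 1261, 1578 and 2179.6 CPM in M1 (lowest, median, highest) and 0.0973, 0.564 and 1.23 CPM in M2, which is 11.32 on the log2 scale (SE 0.16, adjusted p = 4.3e-20). Iigp1 was at 2143, 2236 and 2581 CPM in M1 and 0.486, 0.905 and 4.58 CPM in M2 (10.81, SE 0.25, adjusted p = 1.2e-16). Neither gene had an M2 library above 4.58 CPM, and no M1 library of either was below 1261 CPM. Ly6a, which encodes the surface protein Sca-1, was at 1385, 1762 and 2440.4 CPM in M1 and 0.0727, 0.832 and 2.76 CPM in M2 (10.81, SE 0.27). Serpina3g (ENSMUSG00000041481, chr12:104236245-104241939), an inhibitor of serine and cysteine proteases, was at 1403, 2045 and 2577 CPM in M1 and 1.85, 2.85 and 7.31 CPM in M2 (9.23, SE 0.25). Its neighbour Serpina3f was at 280.1, 329 and 384 CPM in M1 and 0.0973, 0.378 and 0.787 CPM in M2 (9.61, SE 0.13). The Serpina3, Ly6, Gbp and Irg families hold near-identical copies, and counting could split reads among them, so single members are uncertain.

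Cxcl10 (ENSMUSG00000034855, chr5:92346638-92348889), which attracts CXCR3-bearing T cells as Cxcl9 does, was at 302, 386 and 1197 CPM in M1 and 0.11, 0.217 and 0.955 CPM in M2 (10.59, SE 0.18, adjusted p = 7.2e-19). Clic5, of the chloride intracellular channel family, was at 190.0, 442 and 719.8 CPM in M1 and 0.0724, 0.212 and 0.425 CPM in M2 (10.73, SE 0.15). Dnase1l3, a secreted DNase, was at 179, 356 and 454 CPM in M1 and 0.188, 0.515 and 1.25 CPM in M2 (9.32, SE 0.17). None of these 3 overlapped between the states, which the rule for leading genes requires. Cxcl10 spanned more than Dnase1l3 within M1. Gm4841 had 38281 reads over the M1 libraries and 3 over the M2 libraries, a ratio of 12508 (exact 95% interval 4279.7 to 60655, counting error only). Gbp10 had 20323 reads in M1 and 2 in M2, a ratio of 9961 (2757 to 82253). With so few reads in M2 their fitted fold changes depend on single reads: that of Gbp10 was 12.37, and 13.45 without Faminp.254I mouse 2. Cxcl10 overlaps Art3 and Tgtp1 overlaps Olfr56 on the other strand, and whether the counting used strand is not given in the sources used here.

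IL-4 response genes and several secreted enzymes led the M2 side: Retnla, Arg1, Rnase2a, Tmem26, Lrrc32, Mgl2, Eef1a2, Mmp12, Il4i1, Irf4, Chil3, Il1rl1, Bhlhe40, Itgb3 and Stac2. Mgl2, a galactose-binding lectin of macrophages, was at 366, 484 and 648 CPM in M2 (lowest, median, highest) and 0.367, 0.702 and 14.8 CPM in M1, which is −8.78 on the log2 scale of M1 over M2 (SE 0.39, adjusted p = 1.3e-12). Chil3, the chitinase-like protein Ym1, was at 702, 1438 and 2587 CPM in M2 and 5.09, 9.5 and 33.2 CPM in M1 (−7.05, SE 0.27). Irf4, a transcription factor of alternative activation, was at 91.6, 221 and 286 CPM in M2 and 0.419, 1.22 and 4.55 CPM in M1 (−7.26, SE 0.19). In each of these the highest M1 value was far below the lowest M2 value, though the rule for leading genes already required no overlap. Mmp12 (ENSMUSG00000049723, chr9:7344381-7369499), the macrophage elastase, was at 2892, 8337 and 15899 CPM in M2 and 19.4, 25 and 133 CPM in M1 (−8.22, SE 0.33). Tmem26 (ENSMUSG00000060044, chr10:68723646-68782650) was at 291, 404 and 583 CPM in M2 and 0.146, 0.424 and 14.5 CPM in M1 (−9.18, SE 0.43). Il1rl1, the receptor of interleukin-33, was at 108, 151 and 199.8 CPM in M2 and 0.359, 0.94 and 5.16 CPM in M1 (−7.02, SE 0.23). Mmp12 also varied widely within M2, and Il1rl1 little. Eef1a2, a translation elongation factor, spanned 16.2 to 134 CPM in M2 and 0 to 0.708 CPM in M1 (−8.64, SE 0.21). Lrrc32, which anchors latent TGF-β to the cell surface, spanned 104 to 259 CPM in M2 and 0.0682 to 3.18 CPM in M1 (−8.89, SE 0.29). Itgb3, the integrin β3 chain, spanned 112 to 186 CPM in M2 and 0.613 to 8.59 CPM in M1 (−6.58, SE 0.23), and Bhlhe40, a transcriptional repressor, 273 to 424 CPM and 1.53 to 11.6 CPM (−6.85, SE 0.21). In all 15 genes the highest M1 value came from Faminp.254I mouse 5, and leaving that mouse out moved 4 of the fitted log2 fold changes by over 1.5 times on the fold scale: Retnla to −15.75, Rnase2a from −9.62 to −11.24, Tmem26 to −9.93 and Lrrc32 to −9.72. The directions and calls of the 15 held without it. Arg1 was −10.72 without replicate 5 of all genotypes, and Retnla −13.15 without replicate 2. Mmp12, Il4i1 and Bhlhe40 overlap other genes on the opposite strand.

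**Figure D3:**
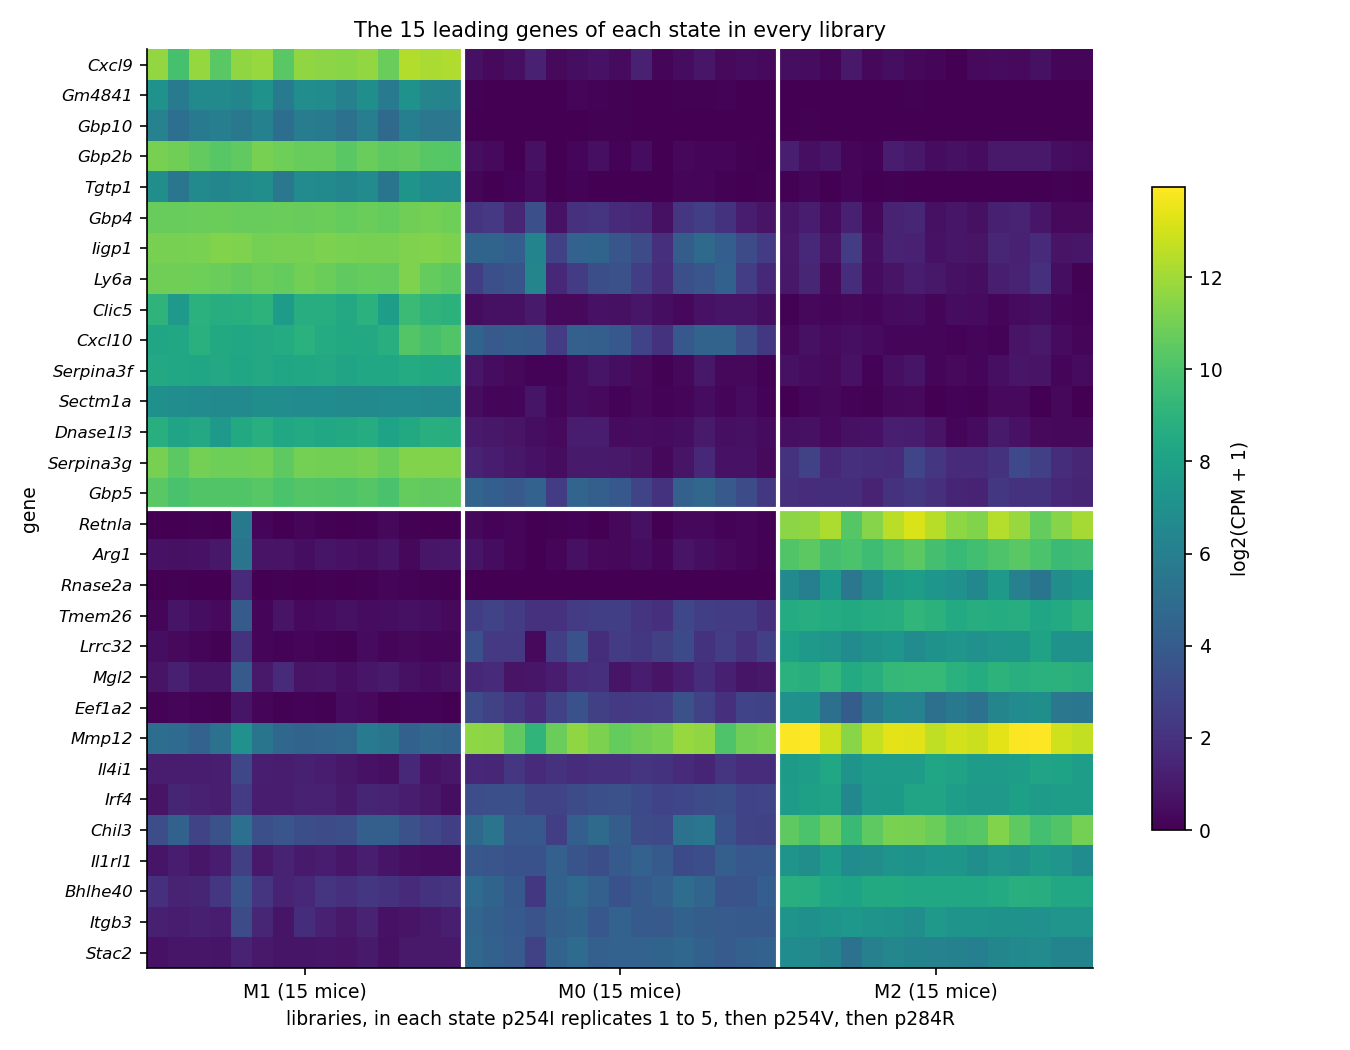
Heat map of the 15 leading genes of each side (rows) in the 15 M1, 15 M0 and 15 M2 libraries (columns), coloured by log2 of CPM plus 1. The M1 libraries are bright in the upper 15 rows and the M2 libraries in the lower 15, one M1 column (Faminp.254I mouse 5) is lighter in the lower rows, and M0 resembles the lower state except in genes such as Mmp12, at 568 to 3509.7 CPM in M0.

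M0 libraries show which state lay away from the unstimulated level, though they were no part of the contrast. On the log2 scale, for the 15 leading M1 genes the M0 mean was nearer the M2 level in 15 of 15, and for the 15 leading M2 genes it was nearer the M1 level in 13. Over all genes past 2-fold, the M0 mean was nearer the lower state for 869 of 1227 genes of the M1 side (70.8%) and for 592 of 1353 genes of the M2 side (43.8%), and of the rest of the M2 side 293 were at or above the M2 level already in M0.

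The promoters of the leading genes differed in composition and in their matches. For this the 100 genes of each side with the largest fold change past 2-fold and a mean of at least 10 CPM were taken, of which 71 and 65 had a promoter sequence, beside 9818 of all tested genes. A GAS match was present in 23.9% of the M1 set, 9.23% of the M2 set and 6.8% of all promoters, and an ISRE core in 33.8%, 1.54% and 3.35%. A STAT6 type match was present in 9.86% of the M1 set, 13.8% of the M2 set and 5.48% of all. A kappaB match (GGGNNNNNCC) was less frequent in both sets, at 50.7% and 58.5% against 67.7%, and a TATA box (TATAAA) was at 26.8%, 9.23% and 7.05%. The median GC content was 48% in the M1 set, 56.7% in the M2 set and 60.7% in all, with 4, 9 and 21 CpG dinucleotides, and base composition by itself changes how often such letters occur. The shares are descriptions over windows of 250 bases before and 50 after the start, both strands, and carry no test.

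In reads rather than folds, the 8 genes with the largest gain in M1 were Gbp2, Mpeg1, Cd74, B2m, Ctsc, Samhd1, Fgl2 and H2-D1. Gbp2, a guanylate-binding protein, went from a mean of 111 CPM in M2 to 8563 CPM in M1 (log2 fold change 6.35). Cd74, the MHC class II invariant chain, was at 1914 and 8221 CPM (2.13), and Mpeg1, the pore-forming perforin-2, at 2152 and 8579 CPM. Ctsc, the protease cathepsin C, was at 120.1 and 5081 CPM (5.44) and Fgl2, a fibrinogen-like protein, at 38.9 and 3369 CPM (6.49). The 8 with the largest gain in M2 were Mmp12, Gpnmb, Lgals3, Psap, Cd36, Lpl, Ctsb and Fth1, whose products act in matrix breakdown, lysosomes, lipid uptake and iron storage. Gpnmb was at 2899.9 CPM in M1 and 10775 CPM in M2 (−1.90), Lgals3, which encodes galectin-3, at 1818 and 9155 CPM (−2.33) and the scavenger receptor Cd36 at 1749.6 and 7787 CPM (−2.16). Psap, the precursor of the saposins, differed by only −0.43 but changed from 18117 to 24405 CPM. Gbp2, Ctsc and Fgl2 were thus low in M2, whereas Psap and Gpnmb were abundant in both states.

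Lists of genes with a shared role were described by counts beside the shares above. Over all tested genes 40.7% were higher in M1 and 41.3% higher in M2, so list counts near these shares do not set a list apart. All 20 listed members of the GBP and IRG families were called, past 2-fold and higher in M1, with a median log2 fold change of 6.85 and a range of 4.31 to 12.37. All 30 antiviral interferon-stimulated genes were also past 2-fold and higher in M1, with a median of 3.51, from Eif2ak2 at 1.46 to Ifit2 at 7.14. Ifit2, which binds viral RNA, was at a median of 2549.6 CPM in M1 and 16.7 CPM in M2. In 29 of the 30, M1 and M2 libraries did not overlap. Of 20 tested M1 effector and inflammatory genes, 18 were higher in M1 and 1 in M2, with a median of 4.17. Among them were Acod1, which makes itaconate (6.91, SE 0.30), Fpr2, a formyl peptide receptor (7.16, SE 0.29), Ptgs2, the inducible cyclooxygenase (5.14, SE 0.20), the costimulatory ligand Cd86 (5.05, SE 0.25), Il27 (5.59, SE 0.13) and Tnf (2.29, SE 0.22). Ubd, an ubiquitin-like modifier, was at 9.29 and at 9.92 without Faminp.254I mouse 1. Edn1, the vasoconstrictor endothelin-1, went the other way at −6.01 (SE 0.28). Il6, Il12a, Il12b and Il23a, cytokines by which M1 cells are often known, were below the filter, with at most 7 reads in any library of either state. Il1b was low as well, with a median of 4.79 CPM in M1 and 0.485 CPM in M2 (3.06, SE 0.26).

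Of 26 tested IL-4 effector genes, 25 were higher in M2 and 24 of these past 2-fold, with a list median of −6.03. Beyond the leading genes, these included Ccl24 (−7.79, SE 0.18), the transferrin receptor Tfrc (−4.43, SE 0.13), the mannose receptor Mrc1 (−3.11, SE 0.17), the transcription factors Egr2 (−6.37, SE 0.22), Klf4 (−2.14, SE 0.14) and Pparg (−1.95, SE 0.05), the arginine transporter Slc7a2 (−4.99, SE 0.15) and the adhesion protein Cdh1, E-cadherin (−7.48, SE 0.27). Egr2 was at a median of 418 CPM in M2 and 4.52 CPM in M1. Tgm2, transglutaminase 2, which is often used as an M2 marker, was higher in M1, at a median of 688 CPM against 153 CPM (2.17, SE 0.11). Ccl17 had 0 reads in the M1 libraries and 921 in the M2 libraries, at least 313-fold higher in M2 with a floor of 3 counts over the group, and Chil4 had 2 and 810, a ratio of 413 (exact 95% interval 114 to 3417). Cd209a, Cd209e and Alox15 were below the filter, with at most 10 reads in any library.

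**Figure D4:**
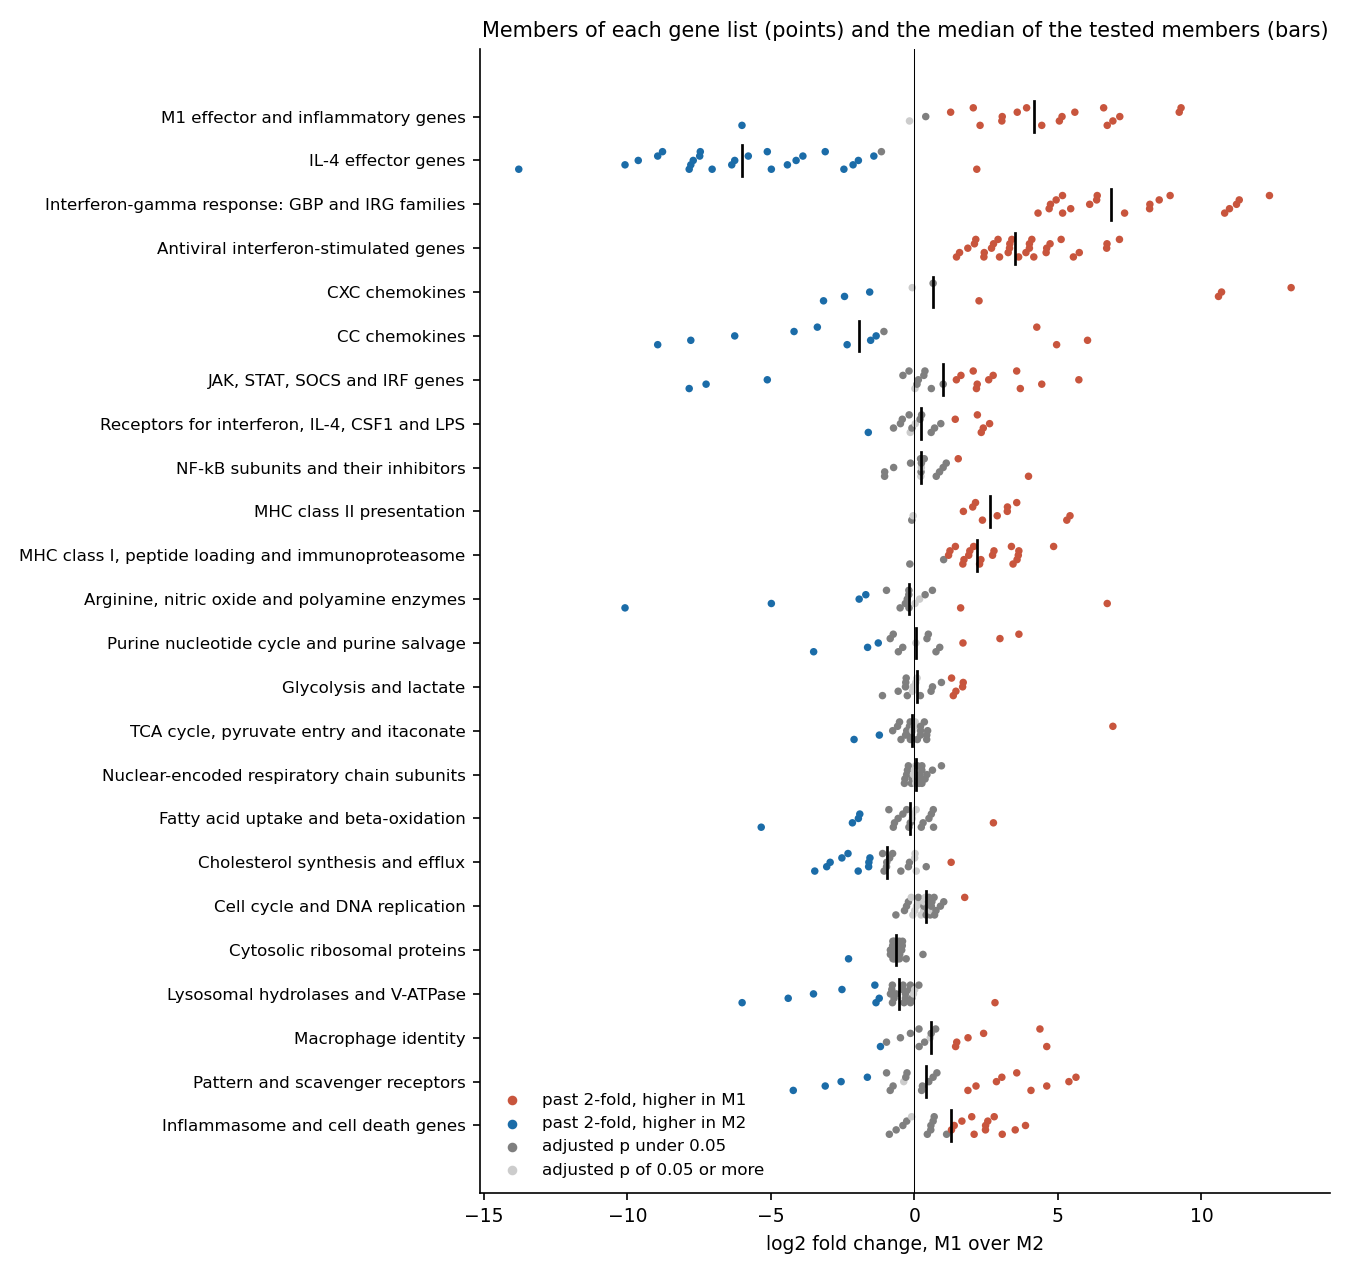
Log2 fold change of M1 over M2 of each tested member of the gene lists, 1 row for each list, 1 point for each gene and a bar at the median of the tested members, red where past 2-fold and higher in M1, blue where past 2-fold and higher in M2, dark grey where called otherwise and light grey where not called. The 20 GBP and IRG genes and the 30 antiviral genes all lie on the M1 side, the IL-4 effector genes lie on the M2 side save Tgm2, and the respiratory chain stays within −0.35 and 0.94.

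Chemokines of both families went both ways. Of 9 tested CXC chemokines, 5 were higher in M1 and 3 in M2, beside 40.7% and 41.3% of all tested genes. Cxcl11, the third ligand of CXCR3, had 7679 reads in M1 and 3 in M2, a ratio of 2509 (exact 95% interval 858 to 12169), and its fitted value of 10.70 became 11.50 without Faminp.254I mouse 4. Cxcl16 was at 2.25 (SE 0.11), and Pf4, platelet factor 4, was higher in M2 at −1.56 (SE 0.08). Of 12 CC chemokines, 9 were higher in M2, Ccl9 among them at a median of 2222 CPM against 124 CPM (−4.20, SE 0.12). Also higher in M2 were Ccl3 (−3.38), Ccl4 (−2.35) and Ccl22 (−6.26). The M2 level of Ccl22 was 140.1 to 499 CPM in replicates 1 and 2 of all genotypes. In replicates 3 to 5 it was 16.3 to 42.6 CPM, save 361 CPM in Faminp.284R mouse 3. Within a mouse, the log2 ratio of Ccl22 ran from −7.76 to −3.07. Ccl5 (6.03, SE 0.58), Ccl12 (4.95, SE 0.27) and Ccl8 (4.26, SE 0.22) were higher in M1. Ccl5 had the widest error of these 3, and without replicate 2 of all genotypes its fold change was 6.63.

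Receptors of the stimuli differed over a range of −1.61 to 2.62, with a median of 0.22. Of 18 tested receptors and adaptors for interferon, IL-4, CSF1 and LPS, 10 were higher in M1, 6 in M2 and 2 were not called. Among all tested genes 40.7% were higher in M1 and 41.3% in M2. The chains of the IL-4 receptors were higher in M1, not in M2: Il4ra was at a median of 493 CPM against 78.6 CPM (2.62, SE 0.05), Il13ra1 at 2.40 (SE 0.16) and Il2rg, the common gamma chain, at 2.19 (SE 0.11). The IL-10 receptor chain Il10ra was at 2.33 (SE 0.07), and Csf2rb, the shared beta chain of the GM-CSF receptor, was the one receptor past 2-fold in M2 (−1.61, SE 0.05). Of 23 JAK, STAT, SOCS and IRF genes, 17 were higher in M1 and 5 in M2. Irf1 (3.69, SE 0.05), Irf8 (2.74, SE 0.06), Stat2 (2.59, SE 0.08) and Irf7 (5.73, SE 0.34) were higher in M1, and Stat6 differed by 0.09 (SE 0.03). The feedback inhibitors divided, with Socs3 (4.44, SE 0.15) and Socs1 (2.19, SE 0.09) higher in M1 and Socs2 (−7.85, SE 0.21) and Cish (−5.13, SE 0.11) higher in M2. Of 16 NF-kB genes, 10 were higher in M1 and 4 in M2, with 2 past 2-fold, the regulators Nfkbiz (3.97, SE 0.09) and Bcl3 (1.53, SE 0.05).

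Antigen presentation genes were higher in M1 with few exceptions. Of 12 MHC class II presentation genes, 10 were past 2-fold and higher in M1, with a median of 2.63, from H2-DMb1 at 1.71 to H2-Oa at 5.42, and the class II transactivator Ciita was at 2.88 (SE 0.13). The 2 others were at −0.09 (Ctss, called) and −0.05 (not called). Of 20 MHC class I, peptide loading and immunoproteasome genes, 18 were past 2-fold and higher in M1, with a median of 2.17, among them the transactivator Nlrc5 (3.64, SE 0.07), the peptide transporter Tap1 (3.58, SE 0.05) and the immunoproteasome subunit Psmb9 (2.72, SE 0.04). The exception was Calr, calreticulin, at −0.16 (SE 0.04). Of 23 inflammasome and cell death genes, 18 were higher in M1 and 12 of these past 2-fold, with Nod1 (3.87, SE 0.08), Nlrp3 (2.48, SE 0.08), Casp4 (2.48, SE 0.06) and Casp1 (1.65, SE 0.04). Of 24 pattern and scavenger receptors, 14 were higher in M1 and 9 in M2, beside 40.7% and 41.3% of all tested genes. The Fc receptor Fcgr4 (5.63, SE 0.19) and the DNA sensor Tlr9 (5.38, SE 0.09) stood on one side, and the scavenger receptor Cd163 (−4.22, SE 0.22) and the beta-glucan receptor Clec7a (−2.56, SE 0.06) on the other, and the inhibitory Fc receptor Fcgr2b was higher in M2 (−1.64, SE 0.15) where the activating Fcgr1 was higher in M1 (4.61, SE 0.12).

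Arginine enzymes divided between the states. Of 17, 4 were higher in M1 and 11 in M2, beside 40.7% and 41.3% of all tested genes. Besides Nos2 and Arg1, the M1 side held Ass1, which remakes arginine from citrulline (1.61, SE 0.23), and the M2 side Srm, spermidine synthase (−1.70, SE 0.11), and Sms, spermine synthase (−0.97, SE 0.06). Purine genes divided evenly, 7 higher in M1 and 7 in M2 of 15, as all tested genes did (40.7% and 41.3%). The phosphorolysis and deamination enzymes Pnp2 (3.64, SE 0.16) and Ada (2.98, SE 0.07) and Lacc1 itself (1.69, SE 0.04) were higher in M1, and enzymes of the purine nucleotide cycle, Adssl1 (−1.63, SE 0.06), Adss (−0.84, SE 0.03), Adsl (−0.41, SE 0.05) and Ampd2 (−1.26, SE 0.03), and the adenylate kinase Ak1 (−3.51, SE 0.14) were higher in M2. Ampd3, another AMP deaminase, was higher in M1 (0.75, SE 0.06). Pnp, listed beside Pnp2, could not be matched to the count table, so that phosphorylase has no value here. Lacc1 was at 493 ± 15.3 CPM in M1 and 162 ± 4.01 CPM in M2 in Faminp.254I (SD, n = 5), at 539.6 ± 26.2 and 166 ± 9.47 CPM in Faminp.254V, and at 396 ± 163 and 122 ± 62.5 CPM in Faminp.284R, where the mice differed most. Its higher level in M1 was thus seen in each genotype.

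Of 19 glycolysis genes, 9 were higher in M1 and 6 in M2, beside 40.7% and 41.3% of all tested genes. Past 2-fold were 5, all higher in M1: Pfkm (1.70, SE 0.05), Pfkfb3 (1.68, SE 0.08), Hk1 (1.44, SE 0.03), Hk3 (1.35, SE 0.06) and the lactate exporter Slc16a3 (1.29, SE 0.12). Slc16a1, another monocarboxylate transporter, was higher in M2 (−1.12, SE 0.09), and so was Hk2 (−0.57, SE 0.08). The TCA cycle list had 9 genes higher in M1 and 12 in M2 of 24, beside the same shares of all tested genes. Past 2-fold were Acod1 in M1 and the isocitrate dehydrogenases Idh1 (−2.10, SE 0.06) and Idh2 (−1.22, SE 0.05) in M2. None of 25 nuclear-encoded respiratory chain subunits was past 2-fold: 11 were higher in M1, 7 higher in M2 and 7 not called, over a range of −0.35 to 0.94. Of 22 fatty acid genes, 7 were higher in M1 and 12 in M2, with Acsl1, an acyl-CoA synthetase (2.75, SE 0.17), on one side and the lipid carriers Fabp4 (−5.34, SE 0.19) and Fabp5 (−1.91, SE 0.07) and Cd36 on the other. Cpt1a, which carries long acyl chains toward the mitochondrial matrix, was higher in M1 (0.66, SE 0.04), and the oxidation enzymes Acads (−0.89, SE 0.07) and Hadha (−0.74, SE 0.04) were higher in M2. Of 23 genes of cholesterol synthesis and efflux, 18 were higher in M2 and 2 in M1, with a median of −0.97. The synthesis enzymes Idi1 (−3.47, SE 0.24), Sqle (−2.94, SE 0.05) and Cyp51 (−2.53, SE 0.07) and the regulator Srebf2 (−1.55, SE 0.04) were on the M2 side. Mylip, which marks the LDL receptor for degradation (1.28, SE 0.07), and the efflux transporter Abcg1 (0.41, SE 0.06) were on the M1 side.

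Of 26 lysosomal hydrolase and V-ATPase genes, 22 were higher in M2, with a median of −0.52. The V-ATPase subunit Atp6v0d2 was at a median of 1391 CPM in M2 and 19.2 CPM in M1 (−6.01, SE 0.19) and Atp6v0a1 at 1512 and 134 CPM (−3.52, SE 0.05). Cathepsin L, Ctsl (−2.53, SE 0.04), and cathepsin K, Ctsk (−4.40, SE 0.14), were higher in M2, and cathepsin H, Ctsh (2.81, SE 0.08), was higher in M1. Of 27 ribosomal protein genes, 26 were higher in M2, with a median of −0.64 and 1 past 2-fold, and in 17 of the 27 the M2 libraries were all above the M1 libraries. Rpl10a reached −2.30 (SE 0.06). Ribosomal protein genes have many near-copies in the genome, and counting could lose their reads. Of 30 cell cycle genes, 16 were higher in M1 and 4 in M2, beside 40.7% and 41.3% of all tested genes. Ccne1, cyclin E1, was the one past 2-fold (1.75, SE 0.07), while Pcna, the replication clamp, was higher in M2 (−0.65, SE 0.04).

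The labelled cell type was present in both states. Of 16 tested macrophage identity genes, 11 were higher in M1 and 4 in M2, beside 40.7% and 41.3% of all tested genes. Their summed level was 20182 to 25151 CPM in M1 and 13120.3 to 18272 CPM in M2. Fcgr1 and Aif1 (4.37, SE 0.09) were the most M1-sided, and Itgam, the CD11b chain (−1.19, SE 0.06), and Cd68 (−0.97, SE 0.04) the most M2-sided. In bulk RNA, fewer cells of a type and less RNA per cell cannot be told apart. Of the dendritic cell markers 5 of 8 were tested, 4 higher in M1 and 1 in M2, with a summed level of 206 to 426 CPM in M1 and 4.18 to 14.1 CPM in M2. Nearly all of this was Clec9a, a receptor for dead cells, at a median of 288 CPM in M1 and 0.8 CPM in M2 (8.57, SE 0.09). Xcr1, another marker of the same dendritic cells, was at 8.01 and 0 CPM (8.54, SE 0.24, and 9.36 without Faminp.254I mouse 2), Zbtb46, a dendritic cell transcription factor, was higher in M2 (−4.64, SE 0.18), and Flt3 and Ccr7 were near 0 in both states, with at most 10 reads in a library. The summed markers of neutrophils were at 47.1 to 154 CPM in M1 and 65.4 to 237 CPM in M2 (5 of 7 tested genes higher in M1, Mmp8 higher in M2 at −5.19). Those of B and plasma cells were at 53 to 152 and 38.5 to 54.1 CPM (2 of 3 higher in M1), with Cd79a and Ms4a1 at most 9 reads in a library, and those of T and NK cells at 8.1 to 14 and 3.18 to 6.86 CPM (3 of 3 higher in M1), with Cd3d, Cd3e and Cd3g at most 3 reads. Those of mast cells, basophils and eosinophils were at 0.4 to 1.26 and 1.71 to 5.13 CPM (2 of 2 higher in M2), of red cells at 0.0565 to 0.437 and 0.113 to 0.588 CPM (none tested, Hba-a2 at 0 in all libraries), and of fibroblasts at 7.49 to 22.2 and 10.5 to 35.2 CPM (4 of 6 higher in M2). The part of other cells in the comparison was not tested beyond these levels.

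Some genes differed little or not at all. For 1824 genes (14.5%) the 95% interval of the log2 fold change lay within 0.2 of 0. The most abundant of these included Ctss, Actb, Lamp1, Apoe, Atp5b, Hspa5 and Arhgdia. Actb, the cytoskeletal actin often used for scaling, was at a mean of 4287 CPM in M1 and 4350.4 CPM in M2 (95% interval −0.12 to 0.10), Lamp1, a lysosomal membrane protein, at 2659.6 and 2642 CPM (−0.06 to 0.07) and Apoe, apolipoprotein E, at 1932 and 1915 CPM (−0.06 to 0.10). Ctss, cathepsin S, at 6225 and 6655 CPM, was nonetheless called higher in M2, with an interval of −0.17 to −0.02 and an adjusted p of 0.02 by edgeR's quasi-likelihood test. So was Arhgdia, at 1029 and 1095 CPM, with an interval of −0.16 to −0.02 and an adjusted p of 0.015 in the same test. Both calls were lost under some alternatives.

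The difference between the states was set against genotype next. No gene's difference between M1 and M2 depended on genotype at an adjusted p under 0.05 by edgeR's quasi-likelihood test of the interaction, 0% of 12574 for each of the 3 pairs of genotypes. An unadjusted p under 0.05 in that test was found for 470 genes (3.74%) for Faminp.284R against Faminp.254I. The counts were 276 (2.2%) for Faminp.254V against Faminp.254I and 549 (4.37%) for Faminp.284R against Faminp.254V. With no dependence in any gene, a share near 0.05 would pass this threshold, and all 3 shares were smaller. DESeq2 called 1 gene for the first pair, Mid1, and 1 for the last, Ak1. Limma-voom with the mouse as a fixed block called 1 for the second pair and none for the others. For Ak1 the log2 difference of the M1-to-M2 change was −1.03 (SE 0.21) between Faminp.284R and Faminp.254V, with an unadjusted p of 1.2e-04 and an adjusted p of 1 in edgeR's test. For Mid1 it was −1.50 (SE 0.29) between Faminp.284R and Faminp.254I. With 5 mice a genotype, a missed threshold does not show that the genotypes respond alike. For Cxcl9 the interaction was 1.48 (SE 0.73) for Faminp.284R against Faminp.254I, a difference of over 2-fold in the response that did not pass the test. The M2 reads behind it were few, 4 to 32 a library in Faminp.254I and 4 to 15 in Faminp.284R. The M1 means of Cxcl9 were 2419 CPM in Faminp.254I and 3993 CPM in Faminp.284R.

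Variation between mice was itself uneven among the genes. On the log2 scale of CPM plus 1, the M1-to-M2 difference of Sectm1a lay between 6.29 and 6.95 in the 15 mice (SD 0.16), that of Serpina3f between 7.44 and 8.22 (SD 0.21) and that of Gbp2b between 9.50 and 10.44 (SD 0.24), the 3 least variable of the 30 leading genes. The widest SDs were those of Retnla, between −13.10 and −5.81 (SD 1.68), Arg1, between −9.80 and −4.25 (SD 1.35), and Mmp12, between −9.61 and −5.69 (SD 1.00). For Retnla and Arg1 these rest on Faminp.254I mouse 5. Without that mouse Arg1 lay between −9.80 and −8.66 (SD 0.39), Retnla between −13.10 and −10.25 (SD 0.74) and Mmp12 between −9.61 and −6.28 (SD 0.76), and the widest SDs were then those of Eef1a2 (0.88) and Cxcl9 (0.87). Within M1, Nos2 averaged 77.7 ± 61 CPM in Faminp.284R (SD, n = 5), 16.9 ± 8.35 CPM in Faminp.254I and 16.2 ± 6.47 CPM in Faminp.254V. Replicate 2 was the lowest M1 library of Nos2 in each genotype. Ptgs2 was also lower in the 3 M1 libraries of replicate 2 (25.6 to 42.5 CPM) than in the other 12 (45.5 to 169 CPM), Ifit2 was at 1621 to 2199 CPM against 2396 to 3197 CPM, and Clec9a went the other way, at 389.5 to 415 CPM against 194 to 339.8 CPM. Gbp2, at 8702 to 9664 CPM against 7849 to 9328 CPM, and Ly6a, at 1563 to 1966 CPM against 1385 to 2440.4 CPM, overlapped between the same libraries. Nothing in the labels tells whether a replicate number stands for a shared day.

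**Figure D5:**
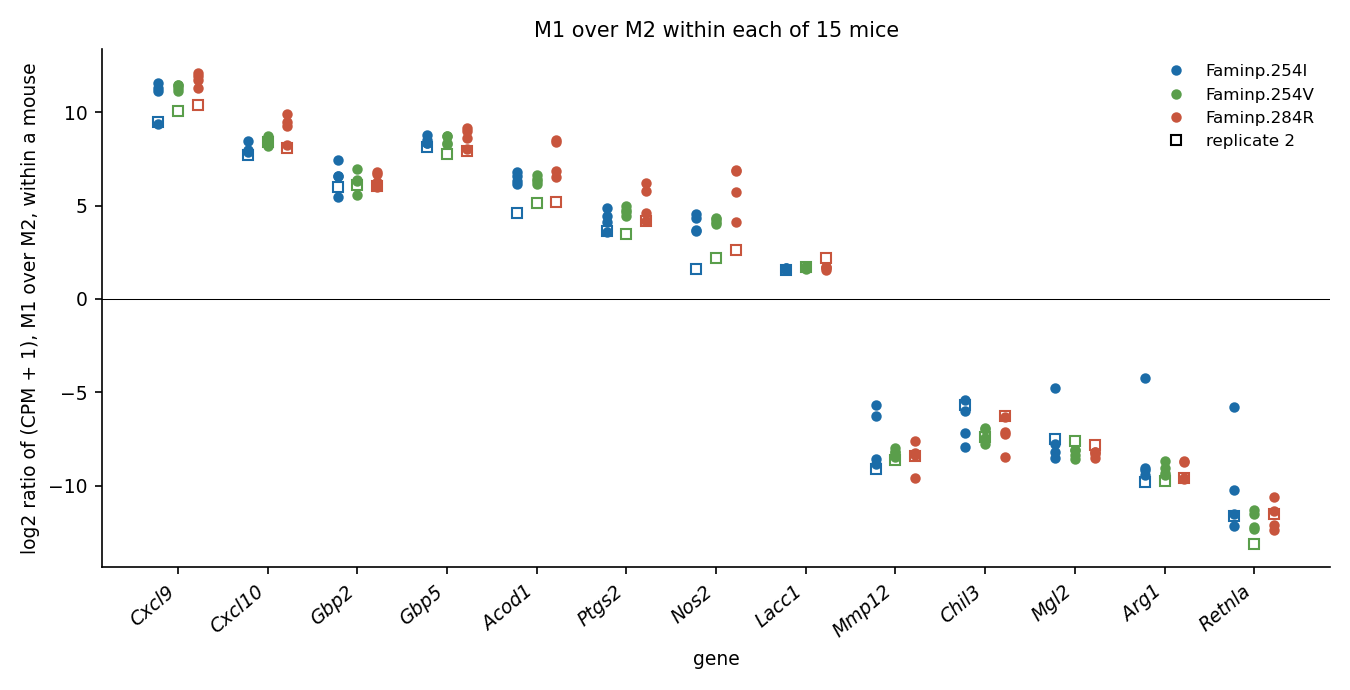
Difference of M1 over M2 in each of the 15 mice, as log2 of CPM plus 1, for 13 genes, with genotype by colour and replicate 2 as open squares. Each of the 15 mice keeps the direction in every gene, Arg1 runs from −9.80 to −4.25 and Retnla from −13.10 to −5.81 with Faminp.254I mouse 5 nearest 0, and the squares are the lowest points of Nos2 in each genotype.

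Some of the genes past 2-fold lay next to each other on the chromosomes. Counting runs of at least 4 neighbouring tested genes past 2-fold in one direction, there were 26 runs with 160 genes on the M1 side and 14 runs with 59 genes on the M2 side, and the runs named here were chosen after their values were seen. The longest, of 16 genes, lay at chr17:34119541-34517352 (GRCm38, GENCODE M21) and held MHC class II genes together with Psmb8, Psmb9, Tap1 and Tap2. Others held 10 genes of the Trim cluster at chr7:104218793-104507849, 9 genes from Irgm1 to Ifi47 at chr11:48861968-49135387, 7 genes with 6 of the Gbp family at chr5:104935057-105346472, and 6 Ifit genes at chr19:34550694-34650009. Cxcl9, Cxcl10 and Cxcl11 stood in a run of 6 at chr5:92226679-92365485. The longest runs of the M2 side had 5 genes, among them Ccl9, Ccl6, Ccl3 and Ccl4 at chr11:83572919-83664683 and the matrix metalloproteinases from Mmp13 to Mmp27 at chr9:7272514-7581885. Many neighbours are copies of one another, among which counting could split reads.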

How the data were processed

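RNA from bone marrow-derived macrophages was sequenced from stranded mRNA libraries as 50-base single reads. The authors trimmed adaptors with Trim Galore and aligned reads to mm10 with HISAT2, and they deposited raw read counts per Ensembl gene, which are the only values used here. The counting tool, its annotation and its use of strand are not given in the sources used here, and a deposited table of normalized values was not used. Of 29307 genes, 29081 were matched by Ensembl ID to GENCODE M21 (GRCm38, the build of mm10), which gave coordinates and overlaps.

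Counts of the 15 M1 and 15 M2 libraries (17239009 to 36892515 reads) were filtered with filterByExpr over the 6 groups of genotype and state, scaled by TMM and fitted with edgeR 4.0.16 (R 4.3.3) by the robust quasi-likelihood method, with the mouse as a block. P-values were adjusted by Benjamini-Hochberg over the 12574 genes tested, and called means under 0.05. Past 2-fold used glmTreat against a log2 fold change of 1. Genotype dependence was the interaction of genotype and state. DESeq2 1.42.0 and limma 3.58.1 (voom) were alternatives, together with other scalings, filters and left-out mice. The procedure was tested on simulated data. CPM used the reads in tested genes times the TMM factor of the library. Ratios of summed reads used library totals, and their intervals cover counting error only.

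The mouse block rests on the labels, by which M1 and M2 cultures of a genotype share replicate numbers 1 to 5. Deviations of same-numbered libraries from their group means correlated by −0.18 to 0.46 (median 0.12) over 9437 genes, with 10 of 15 pairs above 0.1. Nothing in the labels says that cultures of a mouse were made separately, so p-values measure the spread between these mice.

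Genes were named by a rule: 4 markers, the 15 leading genes and the 8 genes with the largest difference of mean CPM on each side, up to 4 members of each list in each direction and those that went against their list, genotype-dependent genes, the 8 most abundant genes with an interval within 0.2 of 0, and list genes near 0. Other list members were named for their known roles after their values were seen. The comparison, the 31 gene lists (570 of 573 members matched) and the tests were chosen with earlier results of these data known. A few genes that the rule names are not reported here.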

Additional observations from a re-analysis of the deposited data

Results flagged for a closer look

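Within the 5 mice of a genotype in 1 state, 30 sets of values were tested, of the 4 markers and Lacc1. In 4 of these sets the lowest or highest library lay far from the other 4, by Dixon's gap criterion at 95%. Chance alone marks about 1 in 20 such sets. Arg1 was at 40.2 CPM in the M1 library of Faminp.254I mouse 5, and the nearest of the others was at 0.884 CPM. Retnla was at 48.4 CPM in the same library, with the nearest at 0.0638 CPM. Nos2 was at 4.84 CPM in the M1 library of Faminp.254V mouse 2, with the nearest at 17.4 CPM. Retnla was at 0.245 CPM in the M1 library of Faminp.284R mouse 2, with the nearest at 0.0418 CPM, a difference of a few reads. The causes were not tested.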

How the results depend on the processing

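The counts of differing genes kept to within 1.5 times their values under all but 1 of the alternatives run. They were 10314 called genes with DESeq2's size factors in edgeR, 10244 with DESeq2, 10314 with limma-voom, 11325 with no filter on low counts and 10589 with all 45 libraries in the fit. The exception was a filter of at least 10 counts in every library, which left 810 genes past 2-fold higher in M1 and 747 higher in M2, because it removes by construction genes near 0 in one state. Leaving out 1 mouse gave 10214 to 10312 called genes (5082 to 5261 higher in M1, 4992 to 5191 in M2), 1224 to 1255 past 2-fold in M1 and 1331 to 1371 in M2, and leaving out 1 replicate number in all genotypes gave 9902 to 10130 called (4955 to 5175 and 4845 to 5072), 1188 to 1248 and 1291 to 1346. A single genotype with its 5 mice gave 7761 (Faminp.254I), 8531 (Faminp.254V) and 7743 (Faminp.284R) called genes. The setting added after seeing the data, without Faminp.254I mice 4 and 5, gave 10260 called genes, with 1260 and 1388 past 2-fold. Without the mouse as a replicate block there were 10128 called genes, with 1216 and 1335 past 2-fold, and of the 171 genes named in the text only Stat6 lost its call (0.09, adjusted p = 0.071). For genotype dependence, DESeq2 called 1 gene for Faminp.284R against Faminp.254I and 1 for Faminp.284R against Faminp.254V, limma-voom called 1 for Faminp.254V against Faminp.254I when the mouse was a fixed term, and 1 for each comparison with Faminp.254I when the mouse was a random replicate block. The cause of these differences was not tested.

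Of 5431 values of the 171 named genes under the alternatives, 5379 kept direction and call. Calls were lost for Ctss, Arhgdia, Stat6 and Calr, all within 0.2 of 0 on the log2 scale, and gained for Atp5b and Hspa5, in 31 and 2 values. Direction changed in 19 values of 5 genes that were not called. For Actb, leaving out 1 mouse or replicate number gave −0.03 to 0.05, and Faminp.254V alone 0.05. Apoe was at −0.03 in Faminp.254V alone and in Faminp.284R alone. Hspa5 ranged from −0.02 to 0.13 with 1 mouse or number left out, with −0.02 without replicate 4, and was at −0.01 without Faminp.254I mice 4 and 5 and at −0.03 in Faminp.284R alone. Lamp1 was at −0.00 with at least 10 counts in every library, at −0.01 to 0.04 with 1 mouse or number left out and at −0.03 in Faminp.254V alone, and Atp5b was at −0.00 to 0.13 with 1 mouse or number left out. Depth limits the genes near 0 in a state, whose fold changes rest on a few reads.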
